A study of Mus musculus with 9 samples.

Results

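The genes described here make up the adhesion and filament set that defines the epithelial to mesenchymal cadherin switch: Cdh1, Cdh2, Cdh3, Cdh11, Epcam, Vim, Ctnna1, Ctnnd1, Dsp and Jup. They were listed by name, with earlier results of these data known, and are 10 of 22180 gene symbols on the array. Each was read from the brightest probe set that carried exactly its 1 symbol, and followed over 9 arrays in 3 groups of 3. All mice were males of mixed strain, 12 months old, and all carried PbCre, a Cre driven by the probasin promoter, which is active in prostate epithelium. The control HG-PIN group (high-grade prostatic intraepithelial neoplasia, a non-invasive lesion) came from 3 mice without the T-3Mb-Erg allele. The T-3Mb-Erg HG-PIN group and the T-3Mb-Erg tumour group (poorly differentiated adenocarcinoma) came from another 3 mice, which carried PbCre and T-3Mb-Erg/+, and each of which gave both lesions. T-3Mb-Erg is an allele of the interval between Tmprss2 and Erg, carried on 1 chromosome, and the series title names haploinsufficiency of the genes in that interval. No tumour from a mouse without the allele and no normal prostate was analysed here, so for the tumour the lesion and the allele can be separated only against HG-PIN of the same mice.

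E-cadherin, the product of Cdh1, joins neighbouring epithelial cells at adherens junctions and is tied to actin through catenins. Desmosomes are a second kind of junction, tied to keratin filaments through desmoplakin and plakoglobin. In the epithelial to mesenchymal switch, cells lose E-cadherin and gain N-cadherin or other mesenchymal cadherins together with the filament protein vimentin. In prostate carcinoma this switch is best known from poorly differentiated disease, while stromal fibroblasts carry vimentin and OB-cadherin in any case.

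Values are log2 of the deposited intensity. As a gauge of background, 1396 olfactory and vomeronasal receptor genes, which prostate is not known to use, had their 95th percentile at a log2 intensity of 4.80, called the receptor level below. Of the 10 genes, 7 had a mean above it, Cdh11 and Vim were above it on all 9 arrays, and Cdh2 was above it on none. The arrays differed in range: the 95th percentile of log2 signal lay between 6.15 and 6.65, and was lowest in control replicate 2, T-3Mb-Erg HG-PIN replicate 3 and T-3Mb-Erg tumour replicate 2. The labelled tissue was captured epithelium. Of 7 measured keratins, 6 to 7 were above the receptor level on the control arrays, 7 on each T-3Mb-Erg HG-PIN array and 3 to 6 on the tumour arrays. Krt18, a keratin of luminal epithelium, was above it on all 9 arrays. So were Col1a1, Acta2 and C1qb, which are on the fibroblast, smooth muscle and macrophage marker lists, but no other gene of these lists was. Of 8 smooth muscle markers, 3 to 4 were above it on the control arrays. For T-3Mb-Erg HG-PIN this was 3 to 7, and for the tumours 2 to 5. Of 11 macrophage and leukocyte markers, 2 to 4 were above it on the control arrays. For T-3Mb-Erg HG-PIN this was 4 to 6, and for the tumours 2 to 4. The log2 of the summed intensity of 7 keratins ran from 8.63 to 9.67 in control HG-PIN, from 8.02 to 8.67 in the tumours and from 10.1 to 10.5 in T-3Mb-Erg HG-PIN. The same sum for 12 fibroblast markers ran from 7.80 to 8.04 in control HG-PIN, from 8.19 to 9.62 in the HG-PIN of T-3Mb-Erg mice and from 9.29 to 12.04 in their tumours, so the keratin signal of the tumours lay below that of all T-3Mb-Erg HG-PIN arrays and their fibroblast signal ranged widely.

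The promoters of Epcam and Vim are shown because they had the lowest and highest tumour minus HG-PIN difference among the 5 genes with a matched window. Cdh1 had no such window. E-boxes were marked because Cdh1 repressors such as Snai1 and Zeb1 are known to bind them. Each is the 250 bases before the transcription start in RefSeq, build GRCm38.p6, written 5′ to 3′: Epcam at chr17:87635729-87635978 and Vim at chr2:13574061-13574310, both on the plus strand. Capitals mark the E-box CAGGTG on either strand (CACCTG on the other) and the TATA box TATAAA.
Epcam: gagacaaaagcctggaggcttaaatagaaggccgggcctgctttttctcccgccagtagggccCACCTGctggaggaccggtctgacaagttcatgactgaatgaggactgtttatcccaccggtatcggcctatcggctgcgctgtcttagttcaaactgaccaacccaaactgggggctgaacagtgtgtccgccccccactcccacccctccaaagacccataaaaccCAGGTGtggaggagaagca
Vim: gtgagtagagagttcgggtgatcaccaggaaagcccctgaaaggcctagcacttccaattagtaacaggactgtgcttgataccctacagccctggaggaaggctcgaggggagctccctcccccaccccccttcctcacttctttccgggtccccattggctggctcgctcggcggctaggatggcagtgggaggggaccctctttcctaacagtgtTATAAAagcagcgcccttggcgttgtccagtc
The Epcam sequence held 2 E-boxes, which begin 187 and 19 bases before the start, and the Vim sequence held none but had a TATA box beginning 32 bases before the start. Among 32851 RefSeq promoter windows of this length, 17.2% held at least 1 such E-box, 2.06% held at least 2 and 12.4% held TATAAA. The windows were also searched on both strands for the grainyhead site AACCGGTT and the AP-1 site TGANTCA, found in 0.116% and 6.75% of all windows and in neither of these. RefSeq windows were matched for 5 of the 10 genes, and those of Ctnnd1, Dsp and Jup held no CAGGTG. A match describes letters only, and binding was not measured.

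In tumour against HG-PIN of the same mice, the epithelial adhesion genes Cdh1 and Epcam fell, by 7.37-fold and 5.85-fold. Vim and Cdh11 lay above every HG-PIN value on all 3 tumour arrays but did not pass the test. Thus 2 of the 9 tested genes were called lower and 0 higher, against 0.216% and 0.0661% of all 16635 genes (0.283% in either direction), where a call is a Benjamini-Hochberg adjusted p under 0.05 in limma over all genes. The groups did not overlap for 4 of the 9 (Cdh1 and Epcam lower, Vim and Cdh11 higher), against 11.4% of all genes (6.43% lower, 4.97% higher). An unadjusted p under 0.05 was reached by the same 4, against 7.65% of all genes. The median difference of the 9 was -0.13 log2, against -0.01 for all genes. Since the list was chosen with earlier results of these data known, the shares of all genes are a description and no test of the list. Cdh2, the gene of N-cadherin, stayed below the receptor level on all arrays.

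**Figure D1:**
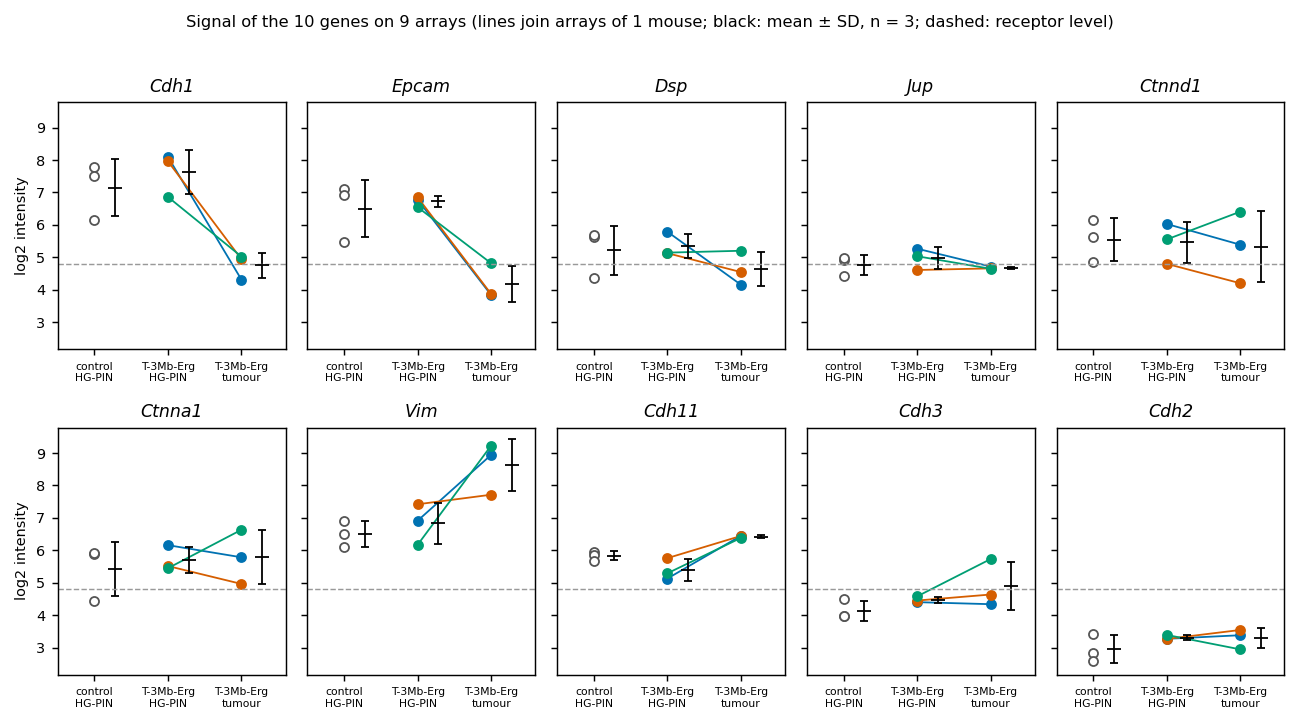
Log2 intensity of each of the 10 genes on the 9 arrays, by group, with the group mean ± SD (n = 3); lines join the HG-PIN and tumour arrays of 1 mouse, and the dashed line is the receptor level of 4.80. Cdh1 and Epcam drop to about that line in the tumours, Vim and Cdh11 lie above all HG-PIN arrays there, and Cdh2 lies under the line on all arrays.

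Cdh1 had log2 intensities of 8.10, 7.96 and 6.86 in T-3Mb-Erg HG-PIN replicates 1, 2 and 3. In the tumours of the same mice it was at 4.31, 4.94 and 5.02. All tumour values were below all HG-PIN values, and tumour replicate 1 was under the receptor level. The group means were 7.64 ± 0.68 and 4.76 ± 0.39 (SD, n = 3), a log2 difference of -2.88 (SE 0.50, 95% interval -3.97 to -1.79, limma adjusted p = 0.0424). With the mouse as a fixed block the adjusted p was 0.0682. A dimmer probe set of Cdh1, not used for the test, had a difference of -2.60.

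Epcam encodes an epithelial adhesion protein of the cell surface that is cleaved by proteases and is widely used as a carcinoma marker. It was at 6.77, 6.85 and 6.55 in the HG-PIN lesions and at 3.84, 3.87 and 4.81 in the tumours. The HG-PIN values lay within a narrow range, and only tumour replicate 3 reached the receptor level. The means of 6.72 ± 0.16 and 4.17 ± 0.56 (SD, n = 3) gave a log2 difference of -2.55 (SE 0.44, 95% interval -3.52 to -1.58, limma adjusted p = 0.0430), and 0.0555 with the mouse as a fixed block. Several tumour values of Cdh1 and Epcam lay under the receptor level, where background limits the fold that can be seen.

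Both calls rested on few arrays. Leaving out tumour replicate 1 gave adjusted p = 0.299 for Cdh1 and 0.302 for Epcam, and leaving out tumour replicate 2 gave 0.054 and 0.0805. Without HG-PIN replicate 1 the values were 0.284 and 0.248, without HG-PIN replicate 2 they were 0.261 and 0.25, and without control replicate 3 they were 0.0695 and 0.0652. The differences themselves stayed between -3.36 and -2.32 for Cdh1 and between -2.90 and -1.82 for Epcam under all alternatives run. Bulk captures of this kind do not separate fewer epithelial cells from less RNA of these genes per epithelial cell. The keratins moved with them: all 7 measured keratins were lower in the tumour in each of the 3 mice, with a mean difference of -1.96, -2.0 and -1.51 log2, and the part of this in the Cdh1 and Epcam differences was not tested.

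Vim encodes vimentin, the intermediate filament protein of mesenchymal cells. Its log2 intensity was 6.91, 7.42 and 6.17 in the HG-PIN lesions of these mice and 8.94, 7.71 and 9.23 in the tumours. Tumour replicate 2 stood close to the HG-PIN range, and the others well above it. The means of 6.83 ± 0.63 and 8.63 ± 0.80 (SD, n = 3) differed by 1.80 log2, or 3.47-fold (SE 0.50, 95% interval 0.71 to 2.88, limma adjusted p = 0.256). A dimmer second Vim probe set gave 1.28.

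Cdh11 encodes OB-cadherin, a cadherin of mesenchymal cells. It was at 5.13, 5.76 and 5.29 in HG-PIN and at 6.45, 6.44 and 6.38 in the tumours. The tumour values were nearly equal, with an SD of 0.04, and all were above the HG-PIN range. The log2 difference was 1.03, or 2.04-fold (SE 0.29, 95% interval 0.40 to 1.66, limma adjusted p = 0.260).

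Cdh3 encodes P-cadherin, which in normal prostate belongs to basal epithelial cells. It was at 4.40, 4.45 and 4.58 in HG-PIN and at 4.34, 4.63 and 5.73 in the tumours, so tumour replicate 3 alone was above the receptor level. The difference of 0.42 (95% interval -0.30 to 1.15) did not pass the test. Cdh2, the gene of N-cadherin, was at 3.27, 3.26 and 3.39 in HG-PIN and at 3.38, 3.54 and 2.94 in the tumours. Its mean over the 9 arrays of 3.18 fell under the filter on dim genes, so it was not tested. Signal at this level does not show whether the gene was expressed.

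None of the plaque and catenin genes passed the test. Dsp encodes desmoplakin, which links desmosomes to keratins. It was at 5.79, 5.13 and 5.14 in HG-PIN and at 4.15, 4.54 and 5.20 in the tumours, with the ranges overlapping through tumour replicate 3. Its difference was -0.72 (95% interval -1.60 to 0.16, limma adjusted p = 0.781). Jup encodes plakoglobin, a component of both desmosomes and adherens junctions. It was at 5.27, 4.61 and 5.03 in HG-PIN and at 4.71, 4.66 and 4.65 in the tumours, close to the receptor level throughout, with a difference of -0.30 (95% interval -0.85 to 0.26).

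Ctnna1 encodes alpha-E-catenin, which connects the cadherin complex to actin. It was at 6.16, 5.51 and 5.45 in HG-PIN and at 5.78, 4.96 and 6.63 in the tumours. The tumour arrays enclosed the HG-PIN range, and the difference was 0.09 (95% interval -0.99 to 1.16). Ctnnd1 encodes a delta-type catenin that binds the inner tail of cadherins and holds them at the membrane. It was at 6.03, 4.80 and 5.55 in HG-PIN and at 5.39, 4.20 and 6.41 in the tumours, with a difference of -0.13 (95% interval -1.32 to 1.06). For both catenins tumour replicate 2 was the lowest and replicate 3 the highest tumour array, and the intervals leave room for a change of about 1 log2 unit either way.

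**Figure D2:**
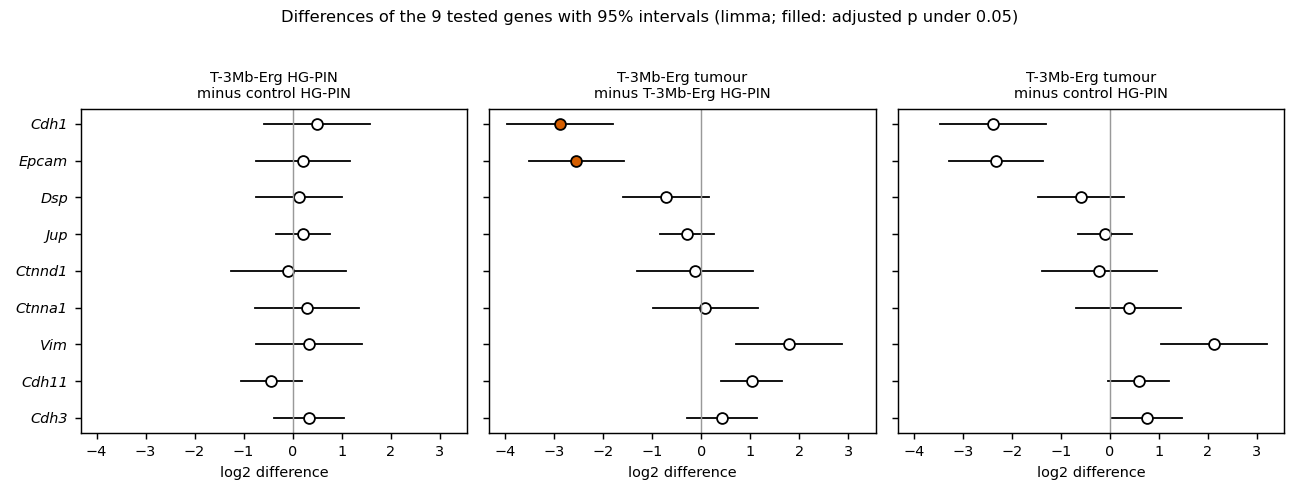
Log2 differences of the 9 tested genes with 95% intervals from limma in each of the 3 comparisons; filled points have an adjusted p under 0.05. Cdh1 and Epcam in tumour against T-3Mb-Erg HG-PIN, at -2.88 and -2.55, are the filled points, and in T-3Mb-Erg HG-PIN against control HG-PIN all intervals cross 0.

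Since both lesions came from the same mice, the differences can be read mouse by mouse. Tumour minus HG-PIN was -3.78, -3.02 and -1.84 log2 for Cdh1 in the mice of replicates 1, 2 and 3, and -2.94, -2.98 and -1.73 for Epcam. It was 2.03, 0.30 and 3.06 for Vim, and 1.32, 0.68 and 1.09 for Cdh11. These 4 of the 10 genes had the same direction in 3 of 3 mice, a pattern held by 24.6% of all tested genes. The mouse with the smallest Cdh1 and Epcam loss was that of replicate 3, which had the largest Vim difference, so the sizes of loss and gain did not rank the mice alike.

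The other 6 genes split between mice. Dsp differed by -1.63, -0.58 and 0.06, and Jup by -0.55, 0.05 and -0.39. Ctnna1 differed by -0.37, -0.55 and 1.19, and Ctnnd1 by -0.64, -0.60 and 0.86. Cdh3 differed by -0.06, 0.19 and 1.15, and Cdh2 by 0.11, 0.28 and -0.45. In the mouse of replicate 3 the catenins and Cdh3 were higher in the tumour, while Cdh1 and Epcam were lower.

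Fibroblast markers moved with part of this. Their mean difference over 11 tested markers was 0.81, -0.06 and 3.32 in the 3 mice, with 6, 6 and 11 of the 11 higher in the tumour. Vim followed the same order of mice. Cdh11 did not: its largest difference was in the mouse of replicate 1, and in the mouse of replicate 2, where the fibroblast mean was -0.06, it was higher by 0.68. Of 12 fibroblast markers, 1 to 3 were above the receptor level on the control arrays, 7 to 11 on the tumour arrays and 3 to 7 on the T-3Mb-Erg HG-PIN arrays. Smooth muscle markers differed by -2.24, -0.76 and 0.67, endothelial markers by 0.53, 0.07 and 0.77, macrophage and leukocyte markers by -0.50, -0.09 and 0.20, and nerve sheath markers by 0.27, 0.32 and 0.38. Their part in the Vim, Cdh11 and Cdh3 values was not tested.

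**Figure D3:**
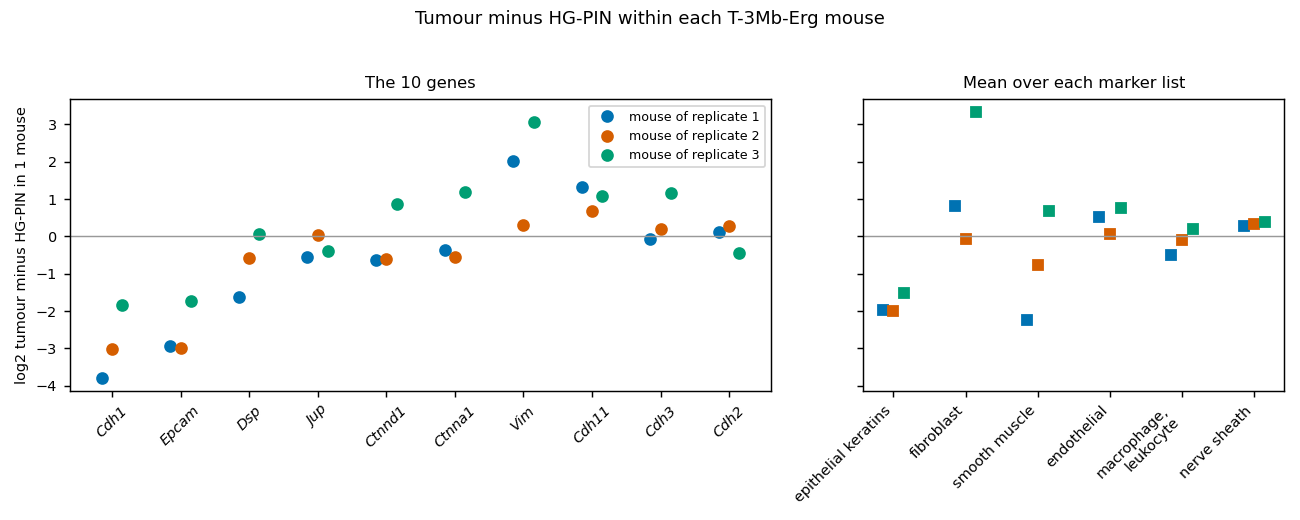
Tumour minus HG-PIN in log2 intensity within each of the 3 T-3Mb-Erg mice, for the 10 genes (left) and as the mean over each marker list (right). Cdh1, Epcam and the keratins are below 0 in all 3 mice, Vim and Cdh11 are above 0 in all 3, and the fibroblast mean runs from -0.06 to 3.32.

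The gap between a mesenchymal and an epithelial gene on the same array cancels whatever scales both alike. It does not cancel a change in the share of epithelial and stromal cells, and a fall of the epithelial gene alone widens it. Set to 0 at the control mean, Vim minus Epcam was 0.11 ± 0.47 for T-3Mb-Erg HG-PIN and 4.46 ± 0.63 in the tumours, with an SD of 1.27 among controls (n = 3 each). Cdh11 minus Cdh1 was -0.93 ± 0.70 and 2.98 ± 0.41, with a control SD of 0.90. Cdh3 minus Cdh1 was -0.15 ± 0.77 and 3.15 ± 0.52, with a control SD of 1.19. Cdh2 minus Cdh1 was -0.13 ± 0.75 and 2.73 ± 0.58, with a control SD of 1.29, although Cdh2 was under the receptor level on all arrays. The tumour means of Epcam and Cdh1 were under the receptor level, so the tumour gaps are set in part by background and give no exact size. Among the HG-PIN lesions, where both genes were above it, Epcam minus Cdh1 had an SD of 0.04 in the controls, although each gene had a control SD of 0.89, and was -0.27 ± 0.53 in the T-3Mb-Erg mice.

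T-3Mb-Erg HG-PIN against control HG-PIN compares the same kind of lesion with and without the allele. No member passed the test: 0 of the 9 tested genes were called by limma, against 0% of all 16635 genes (0 calls), 0 had an unadjusted p under 0.05, against 4.1% of all genes, and 0 had groups that did not overlap, against 10.1% (5.25% lower, 4.86% higher). In control HG-PIN, Cdh1 was at 7.80, 6.14 and 7.51, and its difference was 0.49 (95% interval -0.59 to 1.57). Epcam was at 7.12, 5.48 and 6.91, a difference of 0.22 (-0.74 to 1.18). The low control array was replicate 2, on which 5 of the 10 genes (Cdh1, Epcam, Ctnna1, Ctnnd1 and Dsp) were lower than on both other control arrays, and whose range of signal was the narrowest of the controls.

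Among the mesenchymal genes, Vim was at 6.11, 6.91 and 6.49 in control HG-PIN, and its difference was 0.33 (-0.75 to 1.41). Cdh11 was at 5.96, 5.85 and 5.68, and was the member with the smallest p, with a difference of -0.44 (-1.06 to 0.18, limma adjusted p = 0.998). Cdh3 was at 3.96, 4.49 and 3.96, and Cdh2 at 2.82, 3.42 and 2.58, so both lay under the receptor level on all control arrays. The junction genes in control HG-PIN were at 5.88, 4.45 and 5.91 (Ctnna1), at 5.62, 4.85 and 6.16 (Ctnnd1), at 5.63, 4.35 and 5.68 (Dsp) and at 4.41, 4.91 and 4.97 (Jup). The median difference of the 9 was 0.22, with 7 positive. Of the 9 intervals, that of Jup alone stayed within 1 log2 unit of 0 on both sides.

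In tumour against control HG-PIN, from different mice, the same 4 genes had groups that did not overlap, against 13.7% of all genes (7.51% lower, 6.2% higher). None of the 9 was called by limma, against 0.18% of all genes (0.0721% lower, 0.108% higher), and 4 (Vim, Cdh1, Epcam and Cdh3) had an unadjusted p under 0.05, against 9.32%. Epcam differed by -2.33 (95% interval -3.29 to -1.37, limma adjusted p = 0.0618), Cdh1 by -2.39 (-3.47 to -1.31, 0.0848) and Vim by 2.13 (1.05 to 3.20, 0.122). Cdh11 differed by 0.59 (-0.03 to 1.21, 0.573) and Cdh3 by 0.76 (0.05 to 1.48, 0.491). This comparison shares its tumour arrays with the one above, and the lesion and the allele both differ in it.

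The wider pathways were read in tumour against T-3Mb-Erg HG-PIN, by lists chosen by role and given as counts. Of all 16635 genes, 51.1% were negative there, 0.216% were called lower and 0.0661% higher. Of 12 tested other cadherins, none was called, and the median was 0.01. The smallest p values belonged to Cdh17 and Cdh16, at -0.49 and -0.40 (limma adjusted p = 0.507 and 0.715), both with means under the receptor level. Of 16 tested adherens junction partners, none was called: Ctnnal1, an alpha-catenin-like gene, was at 1.17 (0.231) and Pkp4, an armadillo gene related to Ctnnd1, at -0.75 (0.538). Ctnnb1, the gene of beta-catenin, singled out after its value was seen, was at 0.26 (95% interval -0.72 to 1.25). It turned to -0.10 without tumour replicate 3.

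Of 10 tested desmosome partners 7 were lower, against 51.1% of all genes, and none was called, with a median of -0.28. Dsg2, a desmosomal cadherin of simple epithelia, was at -1.49 (limma adjusted p = 0.126) and Ppl, a plakin, at -0.85 (0.197). Of 8 other filament genes none was called, with a median of 0.23, and Prph and Plec, the genes of peripherin and plectin, were at 0.29 and 0.38 (0.889 and 0.935). Vim thus had a larger difference than any other non-keratin filament gene of the list, whose values ran from -0.14 to 0.59. Only 2 of these 8 genes had a mean above the receptor level, and background limits the differences that the others could show.

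Of 11 tested Epcam partners and proteases, 8 were negative, against 51.1% of all genes, and 2 were called lower, against 0.216%. St14, the gene of matriptase, fell by 1.88 and Spint1, the gene of its inhibitor, fell by 1.69 (limma adjusted p = 0.0366 and 0.0436). Of 8 tested genes of E-cadherin processing, Mmp7, the gene of the epithelial protease matrilysin, fell by 4.90 (0.0185) and was the only call. It fell by 4.42 against control HG-PIN (0.0322).

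Of 9 tested factors listed as linked to repression of Cdh1, 6 were positive and 3 negative, with a median of 0.22. Of these, 1 was called higher, against 0.0661% of all genes. It was Prrx1, a mesenchymal homeobox factor, which rose by 2.87 (limma adjusted p = 0.00720), and by 3.19 against control HG-PIN (0.00525). Whether Prrx1 acts on Cdh1 was not tested. Of 12 activators of epithelial genes, 11 were negative, against 51.1% of all genes, and 3 were called lower, against 0.216%. A mean above the receptor level was held by 5 of the 12. Elf3 fell by 2.91, Foxa1 fell by 2.74 and Ehf fell by 2.62 (limma adjusted p = 0.0154, 0.0306 and 0.0366). Elf3 and Ehf encode epithelial ETS factors, and Foxa1 a forkhead factor of luminal prostate. Foxa1 fell by 2.56 against control HG-PIN (0.0476).

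Among the cell type lists, all 7 measured keratins were negative, with a median of -1.41, and 2 were called lower. These were Krt8 at -2.88 and Krt15 at -3.0 (limma adjusted p = 0.0154 and 0.0158). Of 11 tested fibroblast markers 0 were called, although all 11 were positive, with a median of 1.44. Pdgfra and Thy1, surface markers of fibroblasts, were at 1.95 and 1.99 (0.168 and 0.243). Of 9 tested macrophage and leukocyte markers 5 were positive and 4 negative, with a median of 0.05. Of these, 1 was called, Cd14, with a difference of -1.73 (limma adjusted p = 0.0409). None was called of the smooth muscle markers (Myl9 -0.96, Myh11 -1.37), the endothelial markers (Emcn 1.02, Pecam1 0.87) or the nerve sheath markers (Ncam1 1.75, S100b -0.52). In T-3Mb-Erg HG-PIN against control HG-PIN no gene of any list was called. All 7 keratins were positive there, with a median of 0.73. Krt15 was at 1.98, Elf3 at 1.20 and Cd14 at 0.98 (limma adjusted p = 0.426, 0.998 and 0.998). In tumour against control HG-PIN, Krt8 was at -2.16, Krt15 at -1.02 and Cd14 at -0.75 (limma adjusted p = 0.0548, 0.441 and 0.424). St14 and Spint1 were at -1.47 and -1.16 there (0.0917 and 0.157). None of these was called there, nor were Elf3 and Ehf.

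The 10 genes called in these lists in tumour against T-3Mb-Erg HG-PIN were not all stable. With the mouse as a fixed block Mmp7, Elf3 and Foxa1 were still called, and the highest adjusted p was 0.109. With each array's median subtracted, or with a pseudocount of 16, St14, Spint1, Foxa1, Ehf and Cd14 were not called (highest 0.0795 and 0.0821). St14 and Spint1 were not called with only the 6 arrays of both groups (0.0609), nor Cd14 with no filter on dim genes (0.052). Without tumour replicate 1 none of the 10 was called (limma adjusted p from 0.0703 to 0.291), without HG-PIN replicate 1 none (0.105 to 0.289), and without HG-PIN replicate 2 Prrx1 alone (highest 0.245). Without control replicate 3 Mmp7, Prrx1, Elf3, Krt8 and Krt15 were called (highest 0.081), without tumour replicate 2 St14, Mmp7, Prrx1, Elf3, Foxa1, Krt8 and Krt15 (0.0797), and without control replicate 1 all but St14 and Spint1 (0.052). Over all 16635 genes 47 were called, and 0, 5 and 8 without tumour replicate 1, HG-PIN replicate 1 and HG-PIN replicate 2. Against control HG-PIN the calls of Mmp7, Prrx1 and Foxa1 all ended without control replicate 1 (0.0571 to 0.215) or replicate 3 (0.0768 to 0.186). There Prrx1 alone was called without tumour replicate 1 (highest 0.184) or 3 (0.135), and likewise when HG-PIN replicate 1 of the T-3Mb-Erg mice (0.059), 2 (0.0915) or 3 (0.0688) was left out. Mmp7 and Foxa1 were not called there with medians subtracted (highest 0.0841), with the pseudocount (0.105) or with only the 6 arrays (0.124), nor Foxa1 with robust eBayes (0.0524).

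The genes with the pattern most like that of Cdh1 were found by the mean absolute difference of centred log2 values over the 9 arrays, among 4204 named genes with a mean above the receptor level. They were Ehf (0.214), Atp1b1 (0.247), Epcam (0.303), Elf3 (0.320) and Foxa1 (0.325). Atp1b1 encodes a subunit of the sodium pump. For Vim they were Ndufa4l2 (0.20), Pdpn (0.246), Fads1 (0.270), Col1a1 (0.284) and Gpx8 (0.309), of which Pdpn encodes podoplanin, a surface protein of stromal and lymphatic cells, and Col1a1 a collagen chain on the fibroblast list. These likenesses describe 9 arrays that share their scaling and their groups.

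**Figure D4:**
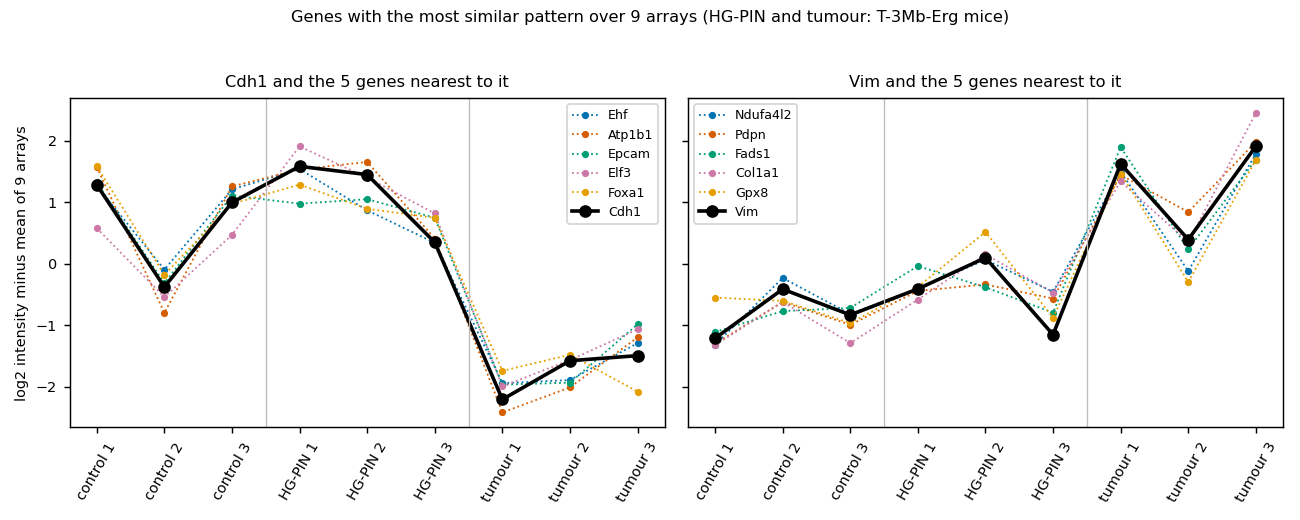
Log2 intensity minus the mean of the 9 arrays for Cdh1 (left) and Vim (right), each with the 5 genes nearest to it; the arrays stand in the order control HG-PIN, T-3Mb-Erg HG-PIN and T-3Mb-Erg tumour, 3 replicates each. Epcam is among the 5 nearest to Cdh1, control replicate 2 dips in the left panel, and tumour replicate 2 is the lowest tumour array for Vim.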

How the data were processed

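Per the labels' protocols, lesions were laser-captured from fixed, paraffin-embedded prostate, and the RNA was NuGEN-amplified and hybridised to 9 Affymetrix Mouse Gene arrays. The authors deposited linear intensity values for 41345 probe sets, from 1.36 to 13922; the sources used here give no background correction, summary or normalization.

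One symbol was listed for 23521 probe sets; the brightest was kept for each of 22180 symbols. Values were log2-transformed, and the lowest 25% by mean (below 3.25) removed, leaving 16635 genes, 9 of the 10 members among them. In R 4.3.3, limma 3.58.1 fitted group means over all arrays, with a random mouse block (consensus correlation -0.01) and trended empirical Bayes variances. The labels' mouse names pair tumour and HG-PIN replicates; their deviations correlated by 0.17, 0.10 and -0.30. The fit was tested on simulated data drawn independently for each array, which could not check the mouse block. The number of arrays limits the precision. A part of the genotype that all 3 groups share is not reported here.

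Members and lists were chosen with earlier results of these data known. Named genes were all members, up to 4 called genes of each list by p, otherwise its 2 with the smallest p, and the 5 genes most like Cdh1 and Vim. Promoters came from RefSeq GRCm38.p6. Alternatives covered block, normalization, filter, pseudocount, weights, probe sets and each array left out; leaving out the array of narrowest range in each group was added after seeing the data.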

Additional observations from a re-analysis of the deposited data

How the results depend on the processing

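Members called in tumour against T-3Mb-Erg HG-PIN numbered 2, and 0 with a fixed replicate block per mouse, with each array's median subtracted or with a pseudocount of 16; leaving out 1 array gave 0 to 2. In tumour against control HG-PIN, 0 members were called, but 2 after quantile normalization, 1 among genes above the receptor level, and 3 with array weights, with the array range as a term or without the narrowest-range arrays; leaving out 1 array gave 0 to 2. In T-3Mb-Erg HG-PIN against control HG-PIN the number was 0 under all alternatives run. Adjusted p in tumour against T-3Mb-Erg HG-PIN ran from 0.00277 to 0.299 for Cdh1 and to 0.302 for Epcam; Vim was called with array weights (1.91, limma adjusted p = 0.028) and after removal of the narrowest-range arrays (1.92, 0.0383). Of 27 member differences, 10 changed sign under an alternative, none of them called. With array weights and without the narrowest-range arrays, respectively, T-3Mb-Erg HG-PIN against control HG-PIN gave -0.0546 and -0.20 for Epcam, -0.0839 and -0.0555 for Ctnna1 and -0.22 and -0.20 for Dsp, and tumour against T-3Mb-Erg HG-PIN gave 0.21 and 0.48 for Ctnnd1. Ctnnd1 in tumour against control HG-PIN was 0.004 without the narrowest-range arrays. Leaving out 1 array gave ranges across 0 in T-3Mb-Erg HG-PIN against control HG-PIN for Cdh1 (-0.0127 to 0.92), Epcam (-0.29 to 0.53), Ctnna1 (-0.19 to 0.55), Ctnnd1 (-0.43 to 0.37) and Dsp (-0.31 to 0.36), in tumour against T-3Mb-Erg HG-PIN for Ctnna1 (-0.37 to 0.52), Ctnnd1 (-0.65 to 0.51) and Ctnnb1 (-0.10 to 0.66), and in tumour against control HG-PIN for Ctnna1 (-0.10 to 0.82), Ctnnd1 (-0.74 to 0.42) and Jup (-0.27 to 0.0107). Over all genes, 47 were called in tumour against T-3Mb-Erg HG-PIN, 26 with the fixed replicate block (20 shared), and 0 to 405 under the alternatives; the 30 of tumour against control HG-PIN ranged from 0 to 938. The causes were not tested.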
